A study of Mus musculus with 6 samples.

Results

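Genes of the intermediate filament cytoskeleton, 10 of the 22375 rows of the table, were followed in stretched and unstretched myoblasts. They are the keratins Krt13, Krt8, Krt18, Krt19 and Krt80, the filament proteins Vim, Des, Nes and Synm, and the linker Plec. The group was chosen by the large difference of Krt13 between the groups, and each row was taken by its gene symbol. The difference between the groups in these 10 genes therefore selected them and is given as a description, without a test.

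C2C12, a mouse myoblast line, was used in every library, so both groups are a single cell line and not muscle tissue. Per the methods, the cells grew in serum-containing medium on elastic plates coated with poly-lysine. The CON group (3 libraries) was not stretched, and the 4H group (3 libraries) received 4 h of cyclic stretch with 15% elongation. The 4H libraries titled 1, 3 and 4 are called 4H replicates 1, 2 and 3 here, after the biosample numbers of the labels, and the labels do not say whether replicates came from separate cultures, so p-values measure the spread between these samples. Gene expression was measured by strand-specific mRNA sequencing and deposited as FPKM (fragments per kilobase of transcript, scaled to library size), a value per length that allows levels to be compared between genes. FPKM holds no depth, so no counting error can be given. Of the 22375 rows, 14125 to 14186 were above 0 in CON and 14899 to 14972 in 4H. Summed FPKM was 395790 to 397260 in CON and 385146 to 387516 in 4H. The 6 myoblast markers were above 0 in every library, with a summed level of 104.8 to 107.0 FPKM in CON and 174.3 to 183.0 in 4H. Itga7 was the largest part of the sum, and Pax7 was low, at means of 0.452 FPKM in CON and 0.429 in 4H. The 7 myotube markers summed to 0.729 to 1.11 FPKM in CON and 1.25 to 1.81 in 4H. In RNA from whole cultures, fewer cells of a type and less RNA per cell cannot be told apart.

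Intermediate filaments are rope-like polymers that carry tension through a cell and join its nucleus, organelles and adhesion sites. Keratins form them as obligate pairs of a type I and a type II chain and are the main filaments of epithelia. Cells of mesenchymal origin build them from vimentin, and myoblasts add nestin and desmin, which in mature fibres ties the sarcomeres together at the Z-discs.

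Krt13 (ENSMUSG00000044041) encodes a type I keratin of the suprabasal layers of non-cornified stratified epithelia, where it pairs with keratin 4. It lies on the minus strand at chr11:100117327-100121566 (GRCm38), with 8 exons in the longest coding transcript. Its level was 1.42, 2.00 and 1.83 FPKM in CON replicates 1 to 3 and 12.4, 13.1 and 13.9 FPKM in 4H replicates 1 to 3. Every 4H library lay above every CON library, with means of 1.75 ± 0.30 and 13.1 ± 0.73 FPKM (SD, n = 3 each). The ratio of the means was 7.51, and on the scale log2(FPKM + 0.5), which understates the change of low genes, the difference was 2.61 with a standard error of 0.11. It was the 7th largest positive difference among the 11593 genes tested, those whose mean FPKM was at least 0.5. In CON, Krt13 stood at percentile 11.1 of those genes by level.

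The sequences in front of the 2 Krt13 start sites annotated by RefSeq are shown because Krt13 set the choice of the group. Each is the 250 bases before a start site, 5′ to 3′ on the minus strand of GRCm38.p6. The first lies upstream of the gene at chr11:100121567-100121816 and the second lies inside the gene, outside its exons, at chr11:100120578-100120827. Capitals mark the AP-1 motif TGANTCA and the E-box CAGCTG, which myogenic factors can bind.
Krt13, first start: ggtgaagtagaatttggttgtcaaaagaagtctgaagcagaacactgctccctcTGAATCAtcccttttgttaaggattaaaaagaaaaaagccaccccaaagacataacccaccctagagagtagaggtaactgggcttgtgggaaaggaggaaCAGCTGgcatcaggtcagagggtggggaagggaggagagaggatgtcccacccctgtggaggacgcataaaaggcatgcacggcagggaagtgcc
Krt13, second start: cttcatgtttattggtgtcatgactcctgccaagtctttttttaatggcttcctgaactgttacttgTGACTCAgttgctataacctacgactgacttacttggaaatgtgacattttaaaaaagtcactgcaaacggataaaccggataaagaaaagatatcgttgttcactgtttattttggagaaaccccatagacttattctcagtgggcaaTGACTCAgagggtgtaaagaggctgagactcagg

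The AP-1 motif began at -196 relative to the first start, and at -183 and -34 relative to the second. Both strands were searched. Of all 32851 mouse windows of this length, 6.75% held TGANTCA, 13.0% held CAGCTG, 12.6% held the TEAD motif GGAATG and 1.47% held the CArG box of serum response factor. Windows were found for 7 of the 10 genes, and none of them, Krt13 included, held the TEAD or CArG motif. The AP-1 motif was in both Krt13 windows and not in those of Krt18, Krt8, Vim, Des, Nes and Synm. These windows are not all comparable with those of Krt13, since the Vim and Synm windows lie wholly in annotated exons and 140 of the 250 bases of the Krt8 window do. The Des window held a CAGCTG at -36. The motifs were picked with the windows in view, and a match describes letters, not a bound site.

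Krt19 (ENSMUSG00000020911), the smallest type I keratin, is the second gene after Krt13 on chromosome 11, at chr11:100140810-100148665. Its level was 5.92, 4.68 and 5.15 FPKM in CON and 15.8, 14.0 and 15.7 FPKM in 4H. The groups did not overlap, and the means were 5.25 ± 0.63 and 15.1 ± 1.04 FPKM, a log2 difference of 1.45 (SE 0.09). Krt15, the type I keratin gene between the pair, was listed at 0 in all 6 libraries. On the other side of Krt13, Krt32 and Krt35, which encode hair keratins, were also listed at 0 throughout. Krt36, the gene next to Krt13 on that side, read 0, 0.127 and 0.0354 FPKM in CON and 0.238, 0.387 and 0.0336 FPKM in 4H, and its groups overlapped. Krt14, further along the same cluster, was also higher in 4H, so the separation by group was not limited to Krt13 and Krt19.

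**Figure D1:**
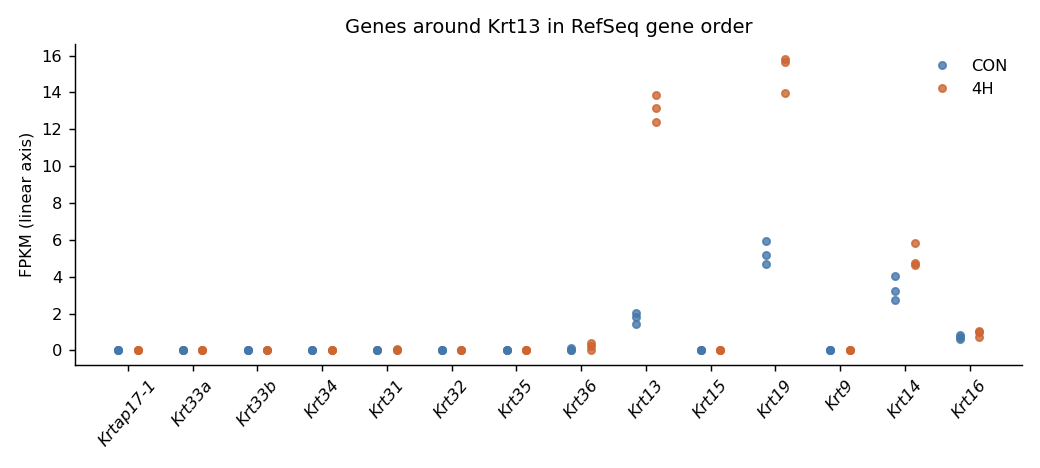
Level in FPKM of Krt13 and of its neighbouring keratin genes on chromosome 11 in RefSeq gene order, with a point for each of the 3 CON and 3 4H libraries. Krt13 and Krt19 separate by group, with Krt13 at 1.42 to 2.00 FPKM in CON and 12.4 to 13.9 in 4H, while Krt32, Krt35 and Krt15 stay at 0 and Krt14 is higher in 4H.

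Type II chains, the partners that type I keratins need to polymerise, were represented by Krt80 and Krt8. Krt80 (ENSMUSG00000037185, chr15:101347444-101370162), found in many epithelia at cell borders, had 12.8, 12.2 and 13.9 FPKM in CON and 18.9, 17.9 and 18.6 FPKM in 4H. Its groups did not overlap, and the log2 difference was 0.49 (SE 0.06), smaller than those of Krt13 and Krt19. Krt8 (ENSMUSG00000049382), the type II keratin of simple epithelia, read 0.0439, 0 and 0 FPKM in CON and 0.358, 0.346 and 0.208 FPKM in 4H. All 3 4H libraries were above the CON libraries, but at levels below the filter of 0.5 FPKM, so no fold is given. Of the 75-base stretches of Krt8, 22.0% recur in transcripts of other genes, and its exons overlap Gm36026 on the other strand, so its low values are uncertain. Krt18 (ENSMUSG00000023043), the usual type I partner of Krt8, was listed at 0 in 5 libraries and at 0.0378 FPKM in 4H replicate 3. An exact 0 can be a failed estimate in such a table.

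Vim (ENSMUSG00000026728, chr2:13573927-13582826) encodes vimentin, the main filament protein of mesenchymal cells. It had 1820.5, 1874 and 1895 FPKM in CON and 2976, 2755 and 2764 FPKM in 4H. The groups did not overlap, and the log2 difference was 0.60 (SE 0.04), equal to a ratio of the means of 1.52. Vim stood at percentile 99.9 of the tested genes in CON, and its share of all FPKM was 0.470% ± 0.0092 in CON and 0.733% ± 0.035 in 4H (SD, n = 3 each). In FPKM, its difference between the group means exceeded the level of any other of the 10 genes in either group.

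Nes (ENSMUSG00000004891, chr3:87971078-87980451) encodes nestin, a filament protein of muscle and neural precursors that copolymerises with vimentin and desmin. Its level was 133.0, 136.8 and 134.7 FPKM in CON and 221.5, 218.6 and 221.8 FPKM in 4H. The log2 difference was 0.71 with a standard error of 0.03, and the spread inside each group was small, with SDs of 1.90 and 1.78 FPKM. Des (ENSMUSG00000026208, chr1:75360329-75368579) encodes desmin, the muscle-specific filament protein. It had 70.4, 72.5 and 71.8 FPKM in CON and 91.6, 87.3 and 87.5 FPKM in 4H, a log2 difference of 0.31 (SE 0.03). In both genes the lowest 4H library was above the highest CON library, with the smaller difference in desmin.

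Synm (ENSMUSG00000030554) encodes synemin, which links desmin and vimentin to sites of adhesion. It was close to 0 in both groups, at 0.185, 0.109 and 0.109 FPKM in CON and 0.212, 0.0686 and 0.163 FPKM in 4H. The groups overlapped at these low levels, and no test was run on Synm. Plec (ENSMUSG00000022565) encodes plectin, a giant linker that binds intermediate filaments to actin, microtubules and adhesion complexes. Its level was 95.3, 93.3 and 95.3 FPKM in CON and 112.0, 111.1 and 120.1 FPKM in 4H. These groups did not overlap, and the log2 difference of 0.27 (SE 0.04) was the smallest of the 7 genes above the filter. Plec shares exon sequence with Parp10 on the same strand, and Krt80, Des and Synm each overlap a gene on the other strand. Whether the counting used strand is not stated in the methods or labels, so reads of such pairs may not have been told apart.

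**Figure D2:**
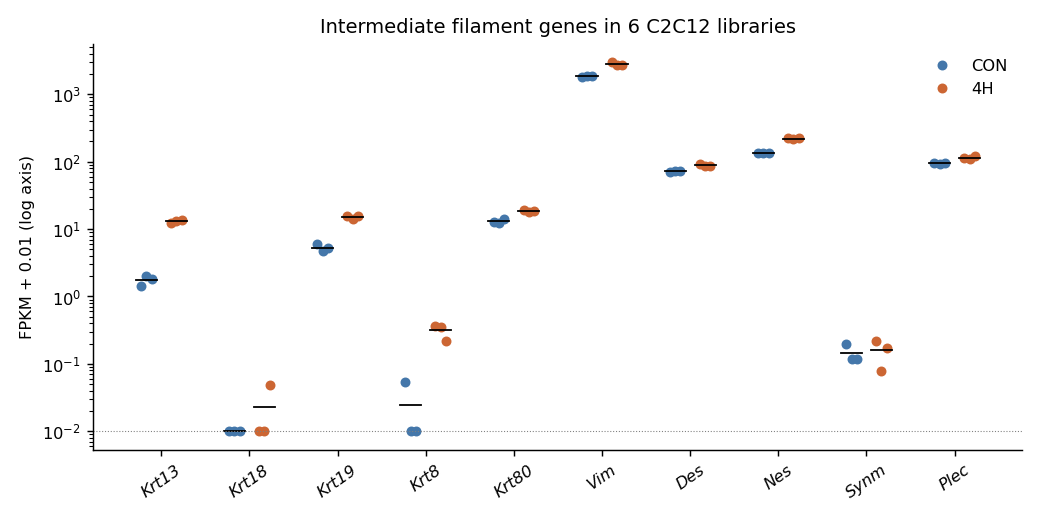
Level of each of the 10 genes in each library, on a log axis in FPKM after adding 0.01, with points for the 3 CON and the 3 4H libraries and a line at each mean. Vim is the highest and Krt18 the lowest, and the groups overlap in Krt18 and Synm.

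By level, the order in CON was Vim, Nes, Plec, Des, Krt80, Krt19, Krt13, Synm, Krt8 and Krt18. The order in 4H was the same except that Krt8 stood above Synm. Neighbours in this order were separated by more than the spread of their libraries, apart from Krt8 and Krt18 in CON and Krt8 and Synm in 4H. In 4H the highest Krt13 library (13.9 FPKM) lay just under the lowest Krt19 library (14.0 FPKM). Krt13 remained the lowest of the 7 genes above the filter in both groups.

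Of the 10 genes, 7 passed the filter, each of them with a CON mean above 0.5 FPKM, and Krt8, Krt18 and Synm did not. As a description and not a test, all 7 lay past the adjusted p of 0.05 used for other genes, in the direction of 4H. The background was 22.6% of the 11593 genes tested in that direction and 24.1% in the other. Krt13 and Krt19 also had a log2 difference of at least 1. Both thresholds were met by 2.61% of all genes tested on the higher side and 1.28% on the lower side. Every 4H library was above every CON library in 8 of the 10 genes, the 7 above the filter and Krt8. The share was 27.5% of the genes tested, which leave out rows below the filter such as Krt8. Because the difference of Krt13 chose the group, these counts support nothing about the 10 genes. The median log2 difference was 0.60 for the 7 genes and -0.01 for all genes tested.

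**Figure D3:**
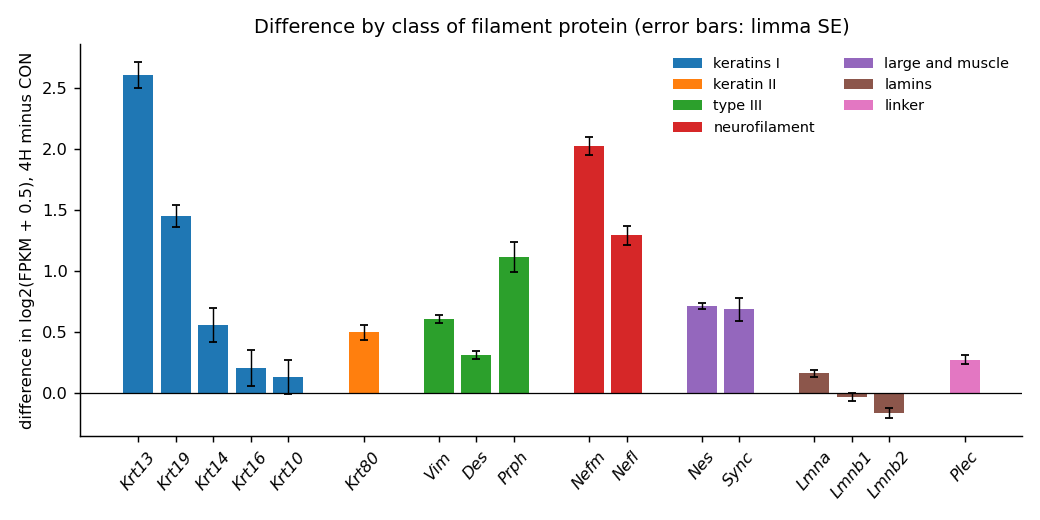
Log2 difference between 4H and CON on the log2(FPKM + 0.5) scale, with bars of 1 standard error, for the 7 genes above the filter and for tested keratin, filament and lamin genes outside the 10, without Iffo1 and Iffo2, arranged by filament class. Krt13 has the largest difference at 2.61 and Nefm the next at 2.02.

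The keratin classes were also summed, as a description, since Krt13, whose difference chose the group, is part of the type I sum. The 28 type I keratin genes in the table summed to 12.9, 11.4 and 12.3 FPKM in CON and 35.7, 34.7 and 37.9 FPKM in 4H. The 25 type II genes summed to 12.9, 12.2 and 13.9 FPKM in CON and 20.0, 18.8 and 19.1 FPKM in 4H. The ratio of type I to type II was close to 1 in CON, at 0.939 ± 0.059, and 1.87 ± 0.10 in 4H (SD, n = 3 each). Without Krt13 it was 0.804 ± 0.074 and 1.19 ± 0.061, so Krt13 supplied much of the gap, and the groups still did not overlap. Within type I, Krt13 held 14.5% ± 3.24 of the sum in CON and 36.4% ± 1.52 in 4H. The ratio of Krt13 to Krt19 was 0.240, 0.427 and 0.354 in CON and 0.784, 0.941 and 0.886 in 4H, so Krt19 was the higher of the pair in every library. Krt80 supplied nearly all of the type II sum. Krt4, which encodes the usual partner of keratin 13, was listed at 0 in CON and reached 0.0277 FPKM in a single 4H library.

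**Figure D4:**
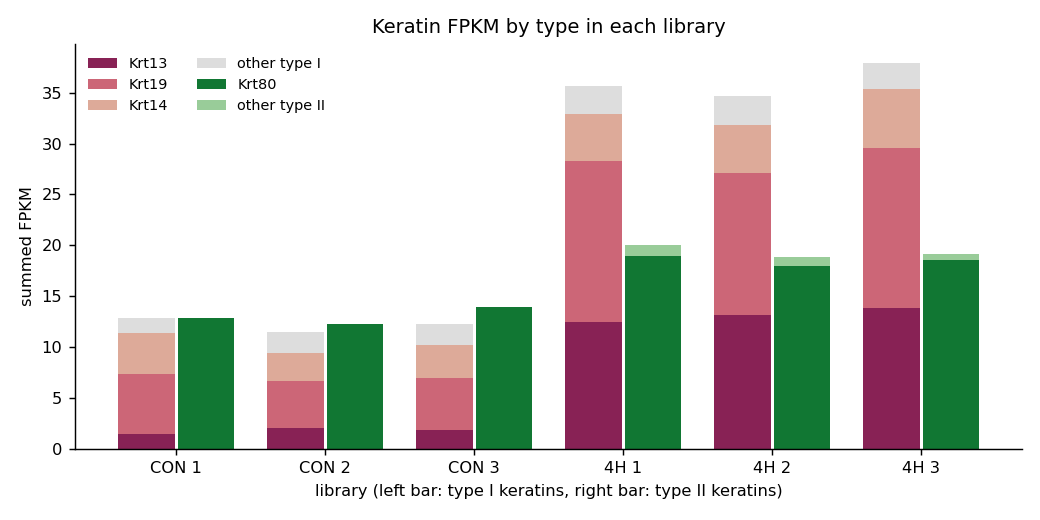
Summed FPKM of type I and type II keratin genes in each library of CON and 4H, with the part of each named keratin. Type I sums are 11.4 to 12.9 FPKM in CON and 34.7 to 37.9 in 4H, and the type II sums are 12.2 to 13.9 and 18.8 to 20.0 FPKM.

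The wider keratin family was mostly near 0. Of 53 keratin genes, 22 were listed at 0 in all 6 libraries and 6 had a mean of at least 0.5 FPKM. The number listed above 0 was 9, 11 and 7 in CON and 20, 18 and 17 in 4H. Type II genes had 2, 1 and 1 above 0 in CON and 10, 8 and 8 in 4H, and type I genes had 7, 10 and 6 in CON and 10, 10 and 9 in 4H. More rows were above 0 in 4H across the whole table too. Of the 10782 rows with a mean under 0.5 FPKM, 23.7% to 24.3% were above 0 in the CON libraries and 30.8% to 31.5% in the 4H libraries. For the 47 keratins under that mean the shares were 2.13% to 10.6% and 23.4% to 29.8%, and the difference between the keratins and the other rows was not tested. Relative sequencing depth, inferred from the steps between low values, was estimated to differ by no more than 1.74% between libraries. The estimate rested on 12 to 23 low genes per pair of libraries. It searched only small differences, so it could not have returned a large one and does not show equal depth. Of the 48 other keratins, 3 were tested and 1 rose, where 22.6% of all genes tested were called higher. This was Krt14, the basal-layer type I keratin, at 3.32 ± 0.65 FPKM in CON and 5.07 ± 0.64 in 4H (log2 fold change 0.55, SE 0.14, limma adjusted p = 0.0116). Without the filter on low values its adjusted p was 0.0859. Krt10 and Krt16 did not pass, with limma adjusted p of 0.472 and 0.294.

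Against all cytoplasmic filament genes, the keratins were a small part. The sum of these genes was 2128 ± 39.4 FPKM in CON and 3283 ± 135 in 4H. Vimentin made up 87.6% ± 0.19 of it in CON and 86.2% ± 0.31 in 4H, and desmin 3.36% ± 0.034 and 2.71% ± 0.038. Type I keratins held 0.573% ± 0.042 and 1.10% ± 0.072, and neurofilament and peripherin genes 1.20% ± 0.046 and 2.25% ± 0.12. The ratio of vimentin to desmin was 26.0 ± 0.32 in CON and 31.9 ± 0.54 in 4H (SD, n = 3 each). Vimentin thus dominated the filament mRNA of both groups, while the shares of desmin and of the type I keratins differed in opposite directions.

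Of the 9 other intermediate filament genes tested, 6 rose, 1 fell and 2 did not pass, with a median log2 difference of 0.68, against a background of 22.6% of all genes tested higher and 24.1% lower. The largest change was in Nefm, a neurofilament subunit of axons, from 5.65 ± 0.48 FPKM to 24.5 ± 1.73 (log2 fold change 2.02, SE 0.08, limma adjusted p = 4.92e-07). Nefl, the light neurofilament subunit, rose from 18.7 ± 1.27 to 46.6 ± 4.70 FPKM (1.29 on the log2 scale, adjusted p = 5.58e-06). Nefm and Nefl share exon sequence on opposite strands. Prph, the filament protein peripherin of peripheral neurons, rose from 1.10 ± 0.14 to 2.96 ± 0.38 FPKM (a log2 fold change of 1.11, with adjusted p = 0.000168). Of the nuclear lamins, Lmna had a log2 fold change of 0.16 (adjusted p = 0.00201), Lmnb2 of -0.17 (adjusted p = 0.0145) and Lmnb1 of -0.03 (adjusted p = 0.460). Without CON replicate 3 the limma adjusted p of Lmnb2, the gene of this list called lower, was 0.0548. The lamins were named after their values were seen.

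Junction genes that anchor filaments at the membrane were read next. Of the 9 tested genes of plakins, desmosomes and hemidesmosomes, 6 rose, 1 fell and 2 did not pass, with a median log2 difference of 0.22 (background 22.6% of all genes tested higher and 24.1% lower). Of the 6, Pkp3 passed the filter only through its 4H level, at a mean of 0.338 FPKM in CON and 0.926 in 4H, and without it 5 of 8 rose. With the replicate block 5 genes of the list passed, all higher, so the fall was lost. The same counts came without CON replicate 1 or 3, or 4H replicate 1 or 3. Jup, which encodes plakoglobin and serves desmosomes and adherens junctions, rose from 3.85 ± 0.23 to 11.2 ± 1.06 FPKM (a log2 fold change of 1.42, with adjusted p = 4.69e-06). Pkp2, the plaque protein plakophilin 2, rose from 8.02 ± 0.35 to 17.9 ± 0.79 FPKM (1.11, adjusted p = 2.34e-06). Itga6, the integrin subunit of hemidesmosomes and laminin receptors, rose from 22.8 ± 0.49 to 39.5 ± 1.37 FPKM (0.78, adjusted p = 2.70e-06). Itgb4 and Col17a1 of the same list were below the filter. Itgb4 had means of 0.293 FPKM in CON and 0.533 in 4H, and Col17a1 of 0.254 and 0.553. The desmoplakin, desmoglein and desmocollin genes of the list had levels near 0 beside Jup and Pkp2. Dsp reached at most 0.102 FPKM, Dsg2 0.0307 and Dsc2 0.0370 in any library, and Dsc3 was listed at 0 in all 6. Plectin, above, was the plakin member of the 10 genes.

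Genes that anchor desmin in muscle gave 3 higher, 1 lower and 1 not passing of 5 tested, with a median log2 difference of 0.54, beside 22.6% of all genes tested higher and 24.1% lower. Vcl, the adhesion plaque protein vinculin, rose from 66.2 ± 2.44 to 161.9 ± 2.51 FPKM (a log2 fold change of 1.28, with adjusted p = 1.02e-07). Ank3, the membrane adaptor ankyrin G, rose from 3.56 ± 0.55 to 6.97 ± 0.31 FPKM (0.89, adjusted p = 0.000260). Mtm1, the lipid phosphatase myotubularin, which binds desmin, fell from 7.96 ± 0.10 to 2.20 ± 0.31 FPKM (-1.65, adjusted p = 4.02e-06). Dmd and Actn2 of the same list were at 0 in all 6 libraries. Compared with desmin itself, at a log2 difference of 0.31, these genes spanned a wider range in both directions.

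Of the 9 chaperone and turnover genes for filaments, 5 rose, 2 fell and 2 did not pass (median log2 difference 0.23). The background was 22.6% of all genes tested higher and 24.1% lower, so the share that fell was close to it. Without CON replicate 1 or 3, or 4H replicate 3, 6 passed, 5 of them higher. Cryab, the small heat shock protein αB-crystallin that binds desmin, rose from 138.7 ± 8.41 to 278.9 ± 24.0 FPKM (a log2 fold change of 1.00, with adjusted p = 8.45e-06). Hspb1, its relative HSP27, rose from 119.3 ± 6.67 to 232.4 ± 10.1 FPKM (0.96, adjusted p = 2.07e-06), though 47.3% of its 75-base stretches recur in other transcripts. Capn2, a calcium-dependent protease that can cut desmin and vimentin, rose from 116.0 ± 3.00 to 227.5 ± 1.24 FPKM (0.97, adjusted p = 1.37e-07). On the other strand, Cryab overlaps Hspb2, Vcl overlaps Ap3m1 and Capn2 overlaps Gm37885.

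**Figure D5:**
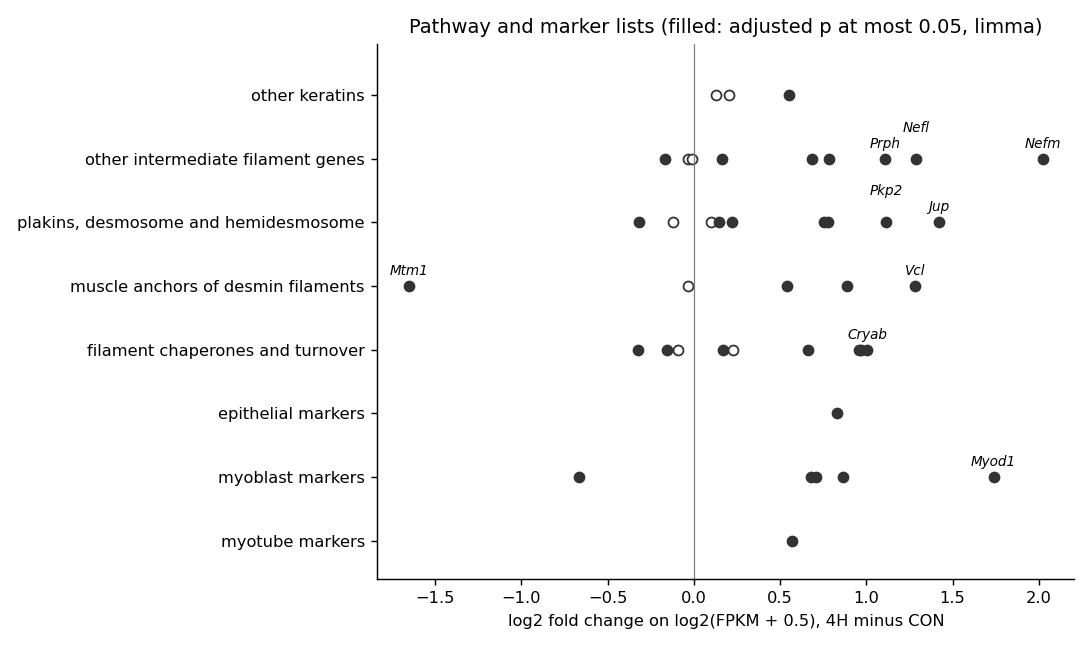
Log2 fold change between 4H and CON for each tested gene of the 8 lists, 1 row per list, with filled points for an adjusted p of at most 0.05 (limma with Benjamini-Hochberg adjustment). Of 42 tested genes 33 passed, 27 of them higher (26 of 41 without Pkp3), where 22.6% of all genes tested were called higher and 24.1% lower, and the extremes are Nefm at 2.02 and Mtm1 at -1.65.

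Because most of these keratins are epithelial, markers of epithelia were read beside them. Of the 14 epithelial markers, 13 had a mean under 0.5 FPKM, and Epcam, a defining marker, was listed at 0 in all 6 libraries. Their summed level was 0.710 to 1.00 FPKM in CON and 1.83 to 2.66 in 4H. The tested one, Ocln of tight junctions, rose from 0.598 ± 0.076 to 1.45 ± 0.19 FPKM (a log2 fold change of 0.83, with adjusted p = 0.00116). The part of such cells in the keratin levels was not tested.

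Of the myoblast markers, 4 of 5 tested genes were called higher and 1 lower (median log2 difference 0.71), set against 22.6% of all genes tested higher and 24.1% lower. Myod1, the myogenic master factor, rose from 5.13 ± 0.57 to 18.2 ± 0.74 FPKM (a log2 fold change of 1.74, with adjusted p = 1.56e-06). Cdh15, the adhesion protein M-cadherin, rose from 7.46 ± 0.32 to 12.3 ± 1.19 FPKM (0.68, adjusted p = 0.000210), while Myf5 fell from 15.8 ± 0.85 to 9.82 ± 1.13 FPKM (-0.67, adjusted p = 0.000347). Itga7, a laminin receptor of muscle, and Chrna1, a subunit of the acetylcholine receptor, rose by 0.87 and 0.71 on the log2 scale (adjusted p = 1.62e-06 and 6.31e-06). Itga7 overlaps Mettl7b on the other strand. Of the 7 myotube markers, the fusion gene Mymk alone was tested and had a log2 fold change of 0.57 (adjusted p = 0.0194). Its adjusted p was 0.0545 without CON replicate 1 and 0.0649 without 4H replicate 2. The other 6 were below the filter and differed in direction. Myog, the factor myogenin of early differentiation, read 0.281, 0.136 and 0.235 FPKM in CON and 0.0794, 0 and 0 in 4H, so every 4H library was lower. Tnnt3, a fast troponin, read 0.0911, 0 and 0.143 FPKM in CON and 0.613, 0.297 and 0.293 in 4H, so every 4H library was higher. Myh3 overlapped between the groups, Ckm was above 0 in CON replicate 1 only, and Myh8 and Actc1 were listed at 0 throughout. The part of myotubes in the desmin and nestin values was not tested.

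The genes with the pattern most like that of Krt13 were sought by the Euclidean distance of the 6 log2 values, each gene centred on its mean, over the 11593 genes tested. The nearest was Ccn2, a matricellular protein of connective tissue, at a distance of 0.13, with 6.46, 7.88 and 7.20 FPKM in CON and 46.0, 47.0 and 51.2 FPKM in 4H. Hmgcll1, a lyase of ketone body metabolism, followed at 0.26, with 0.113, 0.231 and 0.127 FPKM in CON and 2.83, 3.17 and 3.28 FPKM in 4H. Tnc, the matrix glycoprotein tenascin C, was at 0.32, with 13.0, 14.2 and 14.8 FPKM in CON and 77.2, 74.7 and 77.1 FPKM in 4H. The likeness was measured on the same 6 values that show the difference between the groups, so that difference in these 3 genes is a description.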

How the data were processed

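The authors deposited 1 table of FPKM values, with 1 column per library. Per the submitters' processing notes the build is mm10, and no aligner or counter is given in the sources used here. The 10 genes, the gene lists and their tests were chosen with earlier results of these data known.

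FPKM allows no count model, so DESeq2, which the study used, was not run. The model was limma 3.58.1 (R 4.3.3; linear fit, moderated with a mean trend, two-sided, Benjamini-Hochberg adjustment) on log2(FPKM + 0.5), keeping genes whose mean FPKM was at least 0.5. The thresholds were an adjusted p of at most 0.05 and, where stated, a log2 fold change of 1 or more in size. The step was tested on simulated data. An exact permutation test of 3 against 3 libraries cannot go below 0.1 and was not used. Named genes are the 10, all list genes past both thresholds, the 3 largest changes per list with a mean of at least 1 FPKM, the highest other keratin, the neighbours and nearest genes of Krt13, and Myod1, Myf5 and Cdh15. Ocln and Mymk were the only tested genes of their lists. Genes named to show levels near 0 or below the filter, Myog, Tnnt3 and Pkp3 were chosen after their values were seen. Of 22128 Ensembl identifiers, 22017 are in GENCODE M21, which gave coordinates, overlaps and recurring stretches. Promoter windows came from RefSeq (GRCm38.p6). Those of Krt19, Krt80 and Plec were not analysed here. Tables and plots used Python 3.11.15, pandas 2.3.3, numpy 2.4.6 and matplotlib 3.10.9.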

Additional observations from a re-analysis of the deposited data

How the results depend on the processing

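The analysis was repeated with 0.1 or 1 added before the log, without the filter, with it at 1 or 5 FPKM, with TPM, median-of-ratios and quantile scaling, limma without a trend, a replicate block, and each library left out. Every tested member kept its direction. The log2 difference ran from 2.37 to 2.85 in Krt13, 1.37 to 1.53 in Krt19, 0.45 to 0.54 in Krt80, 0.49 to 0.64 in Vim, 0.70 to 0.75 in Nes, 0.29 to 0.35 in Des and 0.24 to 0.31 in Plec. Over the table, 450 genes met both thresholds, 591 with 0.1 added before the log and 347 with 1 added. With the filter at 5 FPKM, where fewer genes are tested, 245 did, and 449 to 467 did with a library left out. After rescaling to TPM the number was 703. That step raised the values while the filter and the added value stayed at 0.5, and 12457 genes were tested. The part of each in the 703 was not tested. With a filter at 5 FPKM no epithelial marker (0 against 1), myotube marker or other keratin (0 each) was left to test. Without a filter, 2 other keratins passed, and Krt14, the 1 that passed with it, did not (limma adjusted p 0.0859). Both of the 2 had a mean under 0.5 FPKM. Of the myotube markers 1 passed, 0 without a filter (limma adjusted p of Mymk 0.0607, with 3 genes at an unadjusted p under 0.05), 0 after quantile normalization (0.0596, 1 gene unadjusted), 0 with a filter at 1 FPKM, which left none, 2 after rescaling to TPM, and 0 to 1 with a library left out. Whether replicate numbers pair the libraries could not be decided. The correlations, after centring each gene in its group, were 0.02, -0.09 and -0.13 by the labels' biosample number. By the number in the titles, which CON and 4H share for 1 and 3, they were 0.02 and 0.18, the second being the highest of all pairs. Centring on 3 libraries balances such values around 0, so they cannot exclude pairing. No block by title number was fitted. In the order of the biosample numbers the replicate block gave 452 calls. The 19 list genes named by the rule kept their side of the adjusted p and their direction in 300 of 301 repeats, the exception being Krt14 without a filter. Among the other genes named, the call was lost by Mymk (above, and without CON replicate 1 or 4H replicate 2). Lmnb2 lost it without CON replicate 3 (limma adjusted p 0.0548) and Pkp3 without a filter (0.0557). Lmnb1, not called, changed sign with TPM and quantile scaling (log2 0.0025 and 0.0011). Unnamed list genes lost calls too. With the replicate block the plakin list had 5 passing, all higher. It had the same without CON replicate 1 or 3, or 4H replicate 1 or 3. The chaperone list had 6 passing, 5 of them higher, without a filter, without a trend and with TPM. It had the same without CON replicate 1 or 3, or 4H replicate 3. Over the 8 lists, 29 to 33 genes passed with a library left out. The log2 threshold of 1 was lost by Cryab without CON replicate 2 (0.95) and without 4H replicate 3 (0.93), and by Prph with 1 added before the log (0.91). FPKM holds no depth, so the precision of each level rests on 3 libraries.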
